A study of Mus musculus with 15 samples.

Results

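The mitochondrial Slc25 carriers were taken here as every gene whose single symbol on the array's annotation is Slc25a followed by a number, with the probe set of the highest mean standing for each gene. This gave 46 genes, read by 50 probe sets, of the 19938 genes measured. The name fits the family and not every member, since Slc25a17 is known from the peroxisome membrane and Slc25a46 from the outer mitochondrial membrane. All arrays hold endothelial cells, which line the blood vessels, from the Tie2-GFP mouse (FVB background), whose cells make green fluorescent protein where the promoter of Tek (Tie2), an endothelial receptor, is active. Cells of any other kind that use this promoter would be sorted too. The mice were 8 to 12 weeks old, males and females were mixed 1 to 1, and large vessels were dissected away before GFP-positive cells were sorted into lysis buffer. The 5 brain samples were pools of 6 mice each, the 5 heart samples pools of 4 mice and the 5 liver samples pools of 2 mice. Each tissue was digested for 60 min, brain with warm collagenase and DNase followed by an albumin spin and brief trypsin, heart with warm collagenase, and liver with dispase at room temperature followed by a slow spin against hepatocytes and a Percoll gradient. Tissue, enzyme, temperature and pool size cannot be told apart. From every sample 5 ng of RNA was amplified for a mouse gene array from Affymetrix, and the deposited values are log2 expression.

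Slc25 carriers sit mostly in the inner mitochondrial membrane and let metabolites, nucleotides, phosphate and cofactors pass between the cytosol and the matrix. Different members serve the exchange of ADP for ATP, the export of citrate for lipid synthesis, the entry of acylcarnitines for fatty acid oxidation, the movement of reducing equivalents by the malate-aspartate shuttle, and the supply of iron for haem and iron-sulphur clusters. In endothelium, a tissue known to make much of its ATP by glycolysis, mitochondria are also known as a source of building blocks and signals.

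The start regions of 5 carriers are shown because these genes were higher in 1 tissue than in both others by at least 0.5 on the log2 scale and the sequence table holds them. Each window of 300 bases, given 5′ to 3′ along the gene from RefSeq on the GRCm38.p6 build, runs from 250 bases before the annotated start to 50 bases after it. Capitals mark the Sp1 motif GGGCGG, the E-box CACGTG and the ETS motif CCGGAAG on either strand, and no matches overlap in the windows shown. The first pair was higher in brain.
Slc25a1 (chr16:17928170-17928469, - strand): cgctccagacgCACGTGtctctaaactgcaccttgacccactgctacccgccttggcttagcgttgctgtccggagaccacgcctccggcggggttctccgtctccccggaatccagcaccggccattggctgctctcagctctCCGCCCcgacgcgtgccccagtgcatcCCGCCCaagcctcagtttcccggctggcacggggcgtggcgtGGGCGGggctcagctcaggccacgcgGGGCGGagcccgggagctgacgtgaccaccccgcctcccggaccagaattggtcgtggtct
Slc25a20 (chr9:108661886-108662185, + strand): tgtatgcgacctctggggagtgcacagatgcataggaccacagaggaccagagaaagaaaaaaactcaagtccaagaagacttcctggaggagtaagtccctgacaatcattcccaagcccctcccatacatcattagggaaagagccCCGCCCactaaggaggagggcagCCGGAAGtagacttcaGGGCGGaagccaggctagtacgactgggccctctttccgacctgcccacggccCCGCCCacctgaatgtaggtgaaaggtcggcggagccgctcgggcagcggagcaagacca
The other 3 were higher in liver.
Slc25a11 (chr11:70646990-70647289, - strand): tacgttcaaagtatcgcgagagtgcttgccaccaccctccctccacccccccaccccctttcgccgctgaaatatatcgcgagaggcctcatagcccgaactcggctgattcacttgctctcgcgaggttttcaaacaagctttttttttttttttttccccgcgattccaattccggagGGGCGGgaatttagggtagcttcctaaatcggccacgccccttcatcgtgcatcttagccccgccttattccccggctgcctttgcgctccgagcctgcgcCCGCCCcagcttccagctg
Slc25a12 (chr2:71367706-71368005, - strand): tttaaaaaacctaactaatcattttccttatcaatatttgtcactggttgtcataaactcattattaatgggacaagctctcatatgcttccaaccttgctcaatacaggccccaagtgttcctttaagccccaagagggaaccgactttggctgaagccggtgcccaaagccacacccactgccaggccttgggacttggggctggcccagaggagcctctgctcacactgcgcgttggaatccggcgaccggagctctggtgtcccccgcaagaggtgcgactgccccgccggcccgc
Slc25a28 (chr19:43674832-43675131, - strand): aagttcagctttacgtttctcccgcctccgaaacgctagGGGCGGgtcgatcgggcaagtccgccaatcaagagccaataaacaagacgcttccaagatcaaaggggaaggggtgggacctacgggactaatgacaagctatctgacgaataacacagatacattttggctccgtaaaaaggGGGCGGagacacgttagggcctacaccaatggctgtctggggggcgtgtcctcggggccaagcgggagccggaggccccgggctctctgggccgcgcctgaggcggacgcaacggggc
The Slc25a1 window holds 4 Sp1 motifs and 1 E-box, the Slc25a20 window 3 Sp1 motifs and 1 ETS motif, those of Slc25a11 and Slc25a28 2 Sp1 motifs each, and that of Slc25a12 none of the letters searched. Over the family, 36 members matched 46 windows. The Sp1 motif stood in 82.6% of these windows, against 46.2% of the 21262 windows of protein-coding genes. The E-box stood in 17.4% of the carrier windows, against 7.84% of the protein-coding ones, and the ETS motif in 15.2%, against 11.6%. The estrogen-related receptor motif AAGGTCA, searched as well, stood in 2.17%, against 4.08%. The windows also differed in base composition, with a median GC content of 59.3% for the carriers and 56.3% for protein-coding genes, and its part in the motif shares was not tested. These are matches of letters and not sites of binding.

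The arrays had medians between 5.98 and 6.11, and arrays of 1 tissue correlated across genes at r = 0.978 to 0.993. Lists of brain, heart and liver sinusoidal endothelial genes were each highest in their own tissue, 6 of 6 genes called in each list against both other tissues. Transcripts that mark other cell types were also seen. Across 18 cardiomyocyte genes the array mean was 5.80 to 5.95 in brain, 7.49 to 9.21 in heart and 5.52 to 5.71 in liver. Over 10 macrophage and Kupffer cell genes it was 5.09 to 5.31 in brain, 5.20 to 5.59 in heart and 5.64 to 8.68 in liver, and over 12 hepatocyte genes 5.77 to 5.93 in brain, 5.13 to 5.25 in heart and 7.09 to 7.84 in liver. Of the hepatocyte genes, Ttr was highest in brain, with means of 12.5 for brain, 5.3 for heart and 8.4 for liver. Pericyte and smooth muscle genes (10 in the list) averaged 6.28 to 7.80 in brain, 6.86 to 8.24 in heart and 6.13 to 6.26 in liver. In bulk samples such as these, fewer cells of a type and less RNA per cell cannot be told apart.

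Most carriers that differed did so by a log2 difference under 1 in size, and calls in each contrast went in both directions. A difference was called where limma's adjusted p, by Benjamini-Hochberg over all 19938 genes of a contrast, was under 0.05. Brain minus heart called 11 of the 46 carriers, which is 23.9% of the family where 15.4% of all genes were called. Of these 8 were higher (17.4%, against 8.29% of all genes) and 3 lower (6.52%, against 7.11%). Brain minus liver called 16, which is 34.8% of the family against 25.1% of all genes, with 7 higher (15.2%, against 11.1%) and 9 lower (19.6%, against 14%). Heart minus liver called 14, or 30.4% against 27.8%, with 4 higher (8.7%, against 11.5%) and 10 lower (21.7%, against 16.3%). Dim genes, here those whose mean reached 5.71 in no tissue, were called less often. A gene high in 1 tissue alone passes this filter, so the filter itself favours genes that differ. For 95% of 1015 olfactory receptor genes, the mean over all arrays lay under 5.71. With dim genes left out, 35 carriers remained among 12422 genes. The calls were then 25.7% of these carriers against 23.6% of the genes kept in brain minus heart. They were 48.6% against 38.1% in brain minus liver, and 34.3% against 42.3% in heart minus liver. The carriers' shares therefore lay near those of other genes, above in some contrasts and below in another.

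Leaving out single arrays moved some of these counts by over 1.5 times. The 8 members called higher in brain than in heart became 5 without brain 3, without brain 5 or without heart 1. In either direction, that contrast then called 13.7%, 14% and 14.4% of all genes. Median differences over the 46 carriers were close to 0, at -0.017 for brain minus heart, -0.063 for brain minus liver and -0.045 for heart minus liver, where all genes had -0.028, -0.002 and 0.032. A called difference of at least 1 in size was seen in at least 1 contrast for 5 carriers, or 10.9%, against 10.2% of all genes. In brain minus heart it was Slc25a1 alone (2.17% of carriers, 3.86% of all genes), in brain minus liver Slc25a32 and Slc25a37 (4.35% against 7.38%), and in heart minus liver Slc25a11, Slc25a35 and Slc25a37 (6.52% against 6.51%). The samples are numbered pools with no further record of how separate their preparation was, so the p-values measure the spread between these samples.

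**Figure D1:**
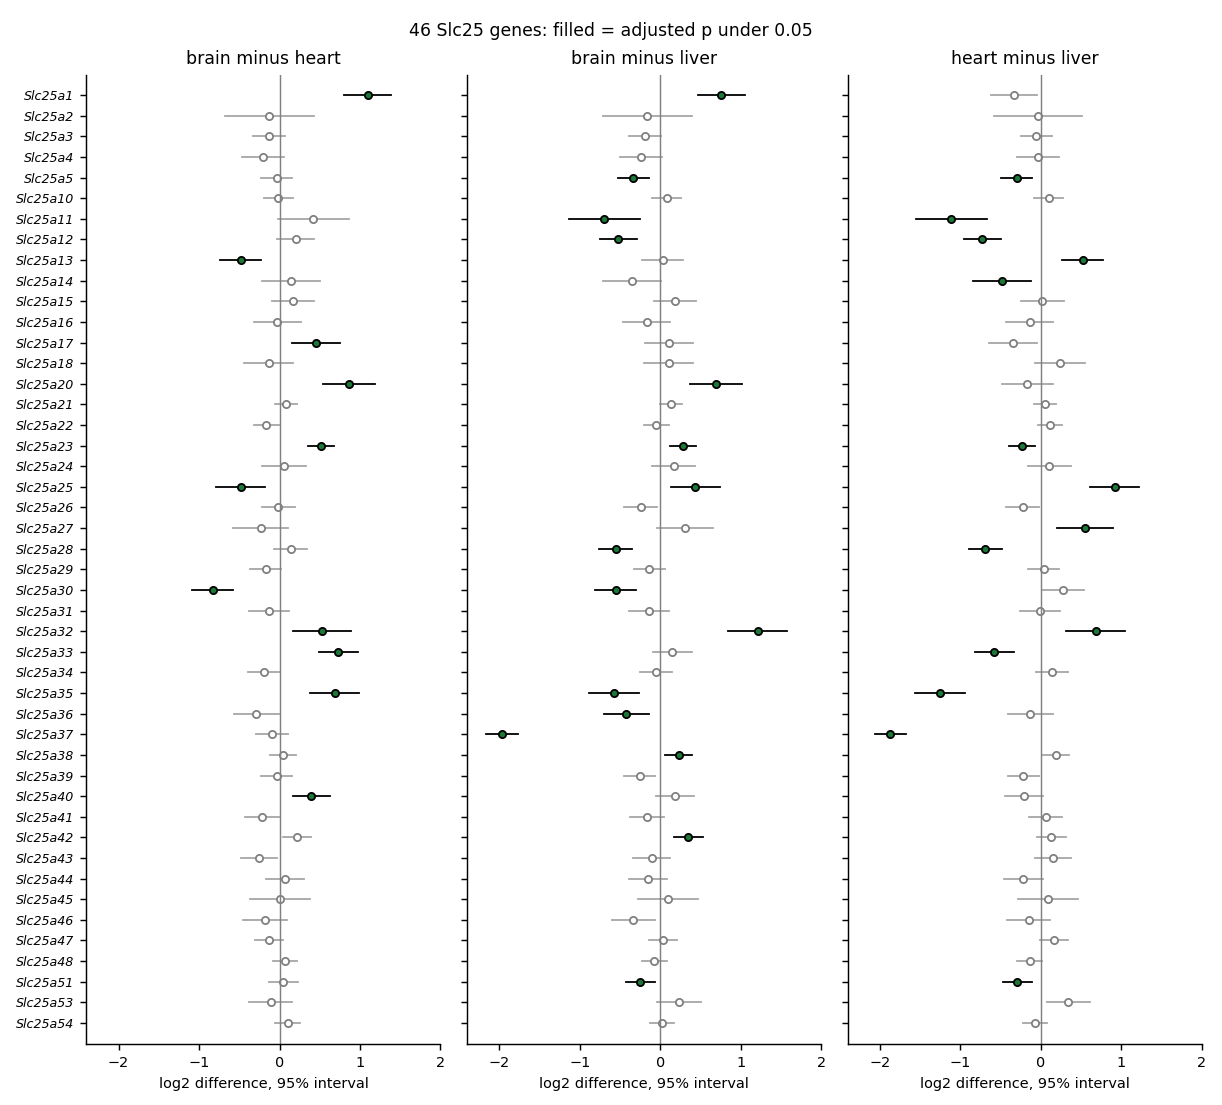
Log2 differences of all 46 carriers in brain minus heart, brain minus liver and heart minus liver, with 95% intervals as lines; filled points have an adjusted p under 0.05. The points farthest from 0 are Slc25a37 in both liver contrasts, at -1.97 and -1.87, and the farthest above 0 is Slc25a32 in brain minus liver, at 1.21.

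Carriers for citrate and acylcarnitine were higher in brain endothelium. Slc25a1, the citrate carrier that sends citrate to the cytosol for fatty acid synthesis, stood at 8.33, 7.98, 7.87, 7.76 and 8.12 on the brain arrays, 7.18, 6.69, 6.65, 6.85 and 7.22 on the heart arrays and 7.55, 7.20, 6.98, 7.18 and 7.33 on the liver arrays. Every brain array lay above every heart and liver array. The means were brain 8.01 ± 0.22, heart 6.92 ± 0.27 and liver 7.25 ± 0.21 (SD, n = 5 each). The difference was 1.09 (SE 0.14, adjusted p = 1.25e-05) for brain minus heart, which is 2.13-fold higher in brain, and 0.76 (SE 0.14, adjusted p = 0.000343) for brain minus liver, 1.69-fold higher in brain. Heart minus liver, at -0.33 (95% interval -0.62 to -0.043, adjusted p = 0.083), did not pass the threshold.

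Slc25a20, the carnitine-acylcarnitine carrier that brings long-chain acyl groups to the site of their oxidation, stood at 7.81, 7.21, 7.62, 7.21 and 7.15 on the brain arrays, 6.69, 6.38, 6.71, 6.56 and 6.33 on the heart arrays and 6.98, 6.93, 6.81, 6.48 and 6.31 on the liver arrays. The brain arrays again lay above all others, while heart and liver arrays overlapped. Its averages were brain 7.40 ± 0.30, heart 6.54 ± 0.17 and liver 6.70 ± 0.29 (SD, n = 5 each), with a difference of 0.86 (SE 0.15, adjusted p = 0.000465) for brain minus heart and 0.69 (SE 0.15, adjusted p = 0.00186) for brain minus liver, or 1.82-fold and 1.62-fold higher in brain. Heart minus liver was -0.17 (95% interval -0.49 to 0.15, adjusted p = 0.454), not past the threshold. The calls for Slc25a1 and Slc25a20 were kept in all 26 alternatives run for each, with an adjusted p of at most 0.0148. The other members of this role group had no call in any contrast: Slc25a10, the dicarboxylate carrier, had means between 6.46 and 6.56, and Slc25a21, the oxodicarboxylate carrier, was dim in every tissue, under the olfactory receptor level.

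Enzymes that share these substrates were counted beside the carriers, and each count reads against the shares of all genes given above for the same contrast and direction. Of 6 measured genes listed under the carnitine shuttle, 3 were called higher and 0 lower in brain minus heart, 4 higher and 1 lower in brain minus liver, and 1 each way in heart minus liver. Their median difference was 0.42 in brain minus heart and 0.424 in brain minus liver, where all genes had -0.028 and -0.002. The list includes Acadvl, an enzyme of fatty acid oxidation and not of the shuttle itself. Acadvl was among those called higher, by 0.41 (adjusted p = 0.00955) in brain minus heart and 0.695 (adjusted p = 4.51e-05) in brain minus liver. Cpt1a, which makes acylcarnitines at the outer membrane, averaged 8.97 for brain, 7.83 for heart and 8.06 for liver, a difference of 1.14 (adjusted p = 6.12e-05) for brain minus heart and 0.91 (adjusted p = 0.000353) for brain minus liver. Cpt2, which turns acylcarnitines back into acyl-CoA inside, differed by 0.80 (adjusted p = 6.86e-05) in brain minus heart and by 0.38 (adjusted p = 0.0214) in brain minus liver. Of 8 genes of citrate synthesis and use, 2 were higher and 1 lower in brain minus heart, 1 higher and 2 lower in brain minus liver, and 0 higher and 3 lower in heart minus liver, with medians of 0.089, -0.042 and -0.073. Acaca, the first committed enzyme of fatty acid synthesis, was higher in brain than in heart by 0.39 (adjusted p = 0.00269) and than in liver by 0.50 (adjusted p = 0.000151), whereas Idh1, the cytosolic isocitrate dehydrogenase, was lower in brain than in liver by a difference of -1.38 (adjusted p = 9.13e-08).

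**Figure D2:**
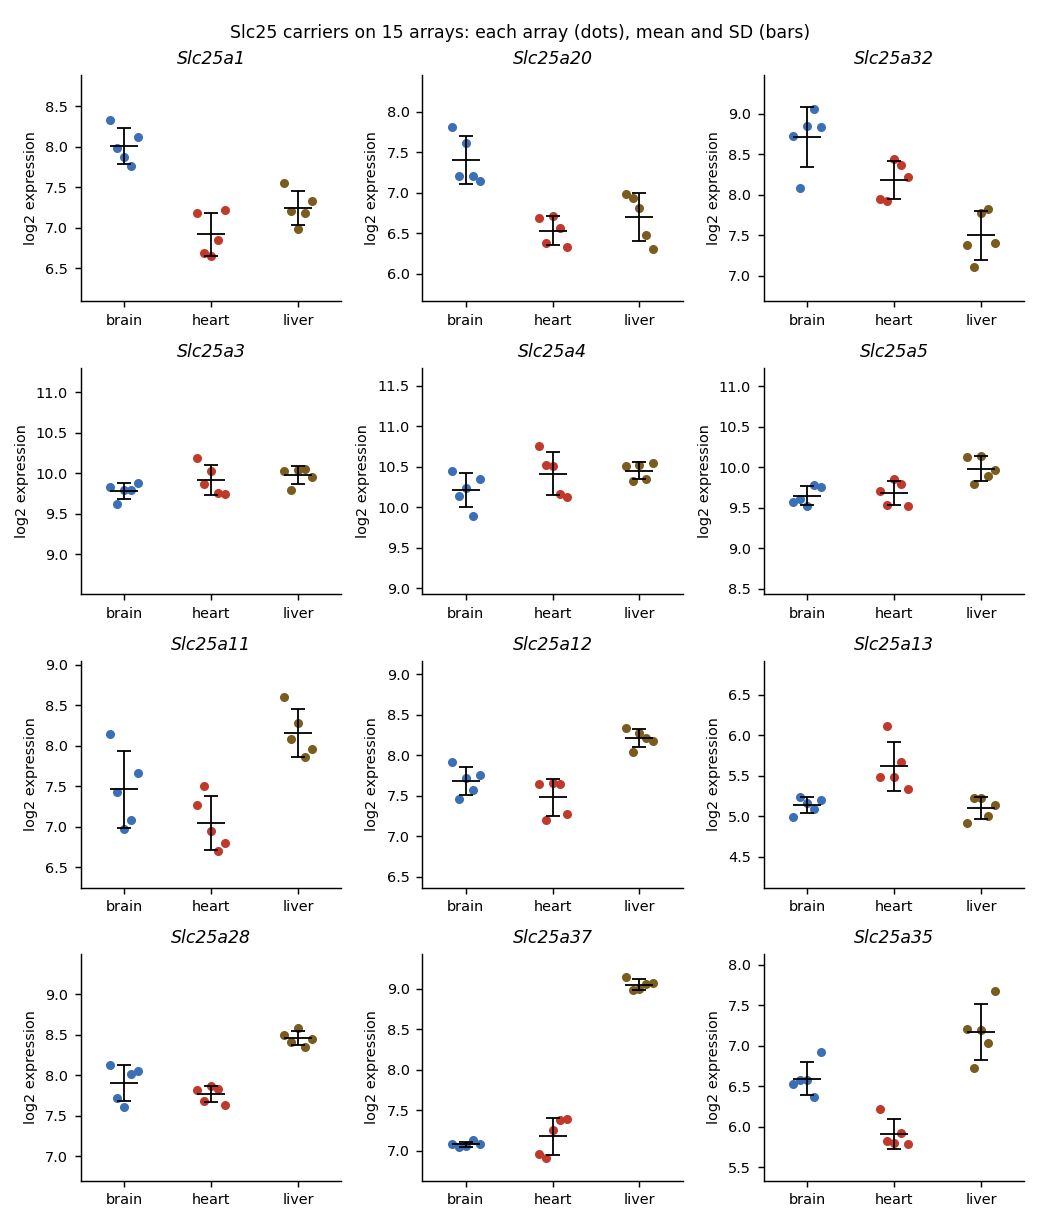
Log2 expression of 12 carriers on each of 15 arrays (dots) by tissue, with the mean and SD as bars; every panel spans the same number of log2 units. Slc25a1 and Slc25a20 sit highest in brain, Slc25a37, Slc25a28 and Slc25a12 highest in liver, and the dots of Slc25a3 and Slc25a4 overlap in all tissues.

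Among carriers of nucleotides and cofactors, Slc25a32 showed the largest difference above 0 of all 46 members, in brain minus liver. It is known as a carrier for folate and for the flavin cofactor FAD. Its levels were 8.72, 8.09, 8.85, 9.06 and 8.84 on the brain arrays, 7.95, 7.92, 8.44, 8.37 and 8.22 on the heart arrays and 7.38, 7.11, 7.78, 7.82 and 7.40 on the liver arrays. Liver arrays lay below all others, while brain 2 fell inside the range of the heart arrays. Tissue means were brain 8.71 ± 0.37, heart 8.18 ± 0.24 and liver 7.50 ± 0.30 (SD, n = 5 each), the difference 1.21 (SE 0.17, adjusted p = 2.89e-05) in brain minus liver, 2.32-fold higher in brain, and 0.68 (SE 0.17, adjusted p = 0.00616) in heart minus liver, 1.6-fold higher in heart. The smaller difference in brain minus heart, 0.53 (SE 0.17, adjusted p = 0.0471), lost its call without any 1 of brain 1, 3, 4 or 5, heart 1, 2, 4 or 5, or liver 1 or 5, with adjusted p-values up to 0.117.

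Other carriers of this group differed less in brain minus liver. Slc25a51, the carrier of NAD, had differences of -0.25 (SE 0.086, adjusted p = 0.0409) for brain minus liver and -0.29 (SE 0.086, adjusted p = 0.0156) for heart minus liver. The Slc25a51 call in brain minus liver was lost without any 1 of brain 1, 2, 3 or 4, heart 2 or 4, or liver 3 or 5, with adjusted p-values up to 0.105. Slc25a42, a carrier of coenzyme A, was higher in brain than in liver by 0.35 (SE 0.085, adjusted p = 0.00472). The Slc25a42 call was lost with liver 1, 3 and 4 left out together, and under the centring on pan-endothelial genes described below. Of the pyrimidine nucleotide carriers, Slc25a36 differed by -0.42 (SE 0.13, adjusted p = 0.0258) in brain minus liver, a call lost without brain 4, liver 3 or liver 5 (adjusted p up to 0.0652), and Slc25a33 by 0.73 (SE 0.12, adjusted p = 0.000172) in brain minus heart and -0.58 (SE 0.12, adjusted p = 0.000938) in heart minus liver. The second probe set of Slc25a36, with means of 8.41 for brain, 8.54 for heart and 8.89 for liver, had the same order as the kept one. Slc25a33 is dim, with means of 5.42 for brain, 4.69 for heart and 5.27 for liver. Slc25a17, the peroxisomal carrier of cofactors such as coenzyme A, differed by 0.46 (SE 0.14, adjusted p = 0.0347) in brain minus heart, which was lost without brain 1, 3 or 5 or heart 1 or 3 (adjusted p up to 0.0991). No contrast called Slc25a16 or Slc25a26, the carrier of S-adenosylmethionine. Of 8 genes of mitochondrial one-carbon metabolism, 0 were called in brain minus heart, and 1 each way in brain minus liver and in heart minus liver.

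The carriers of ADP, ATP and phosphate, which feed the ATP synthase, had a call for 1 of 4 members, Slc25a5. Among all genes, 37.8% were called in at least 1 contrast. Slc25a4 (Ant1), an ADP/ATP carrier best known from heart and muscle, stood at 10.45, 10.14, 10.24, 9.89 and 10.35 on the brain arrays, 10.76, 10.52, 10.51, 10.17 and 10.13 on the heart arrays and 10.51, 10.33, 10.52, 10.35 and 10.55 on the liver arrays. The groups overlapped, with means of brain 10.21 ± 0.22, heart 10.42 ± 0.27 and liver 10.45 ± 0.10 (SD, n = 5 each). Its differences were -0.20 (95% interval -0.46 to 0.058, adjusted p = 0.325) for brain minus heart, -0.24 (95% interval -0.50 to 0.024, adjusted p = 0.197) for brain minus liver and -0.034 (95% interval -0.29 to 0.23, adjusted p = 0.871) for heart minus liver, and these intervals leave room for a change of up to 0.50 on the log2 scale. Within heart, arrays 1, 2 and 3 were high at 10.76, 10.52 and 10.51, and arrays 4 and 5 low at 10.17 and 10.13. The mean of 18 cardiomyocyte genes on the same heart arrays 1 to 5 was 9.21, 8.16, 8.76, 7.51 and 7.49, and its part in the Slc25a4 level was not tested. Without heart 1 and 3, chosen because earlier results of these data had their cardiomyocyte markers highest, brain minus heart for Slc25a4 was -0.058 (adjusted p = 0.834).

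Slc25a3, the phosphate carrier, read 9.83, 9.62, 9.80, 9.80 and 9.88 on the brain arrays, 10.19, 9.87, 10.03, 9.76 and 9.74 on the heart arrays and 10.03, 9.79, 10.04, 10.06 and 9.95 on the liver arrays. These ranges overlapped as well, around means of brain 9.79 ± 0.10, heart 9.92 ± 0.19 and liver 9.98 ± 0.11 (SD, n = 5 each). Brain minus heart was -0.13 (95% interval -0.33 to 0.062, adjusted p = 0.399), brain minus liver -0.19 (95% interval -0.38 to 0.007, adjusted p = 0.166) and heart minus liver -0.055 (95% interval -0.25 to 0.14, adjusted p = 0.708). When each array was centred on 17 pan-endothelial genes in place of the deposited scale, the median of all genes moved to -0.252 in brain minus heart and -0.226 in brain minus liver, and 37.1% and 38.3% of all genes were called. On that scale Slc25a3 was called lower in brain at -0.36 against heart (adjusted p = 0.036) and -0.41 against liver (adjusted p = 0.0148), and Slc25a4 at -0.43 (adjusted p = 0.0185) and -0.46 (adjusted p = 0.00818). This centring moves every gene alike, so these calls are not particular to the carriers. On the deposited scale the 17 genes differed too, 5 called higher and 2 lower in brain minus heart, 7 and 3 in brain minus liver. Among them Cldn5 stood at 2.35 in brain minus heart and 1.41 in brain minus liver.

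Slc25a5 (Ant2), an ADP/ATP carrier known from dividing cells, stood at 9.57, 9.61, 9.52, 9.78 and 9.76 on the brain arrays, 9.71, 9.54, 9.85, 9.80 and 9.52 on the heart arrays and 10.13, 9.79, 10.14, 9.89 and 9.97 on the liver arrays. Liver arrays lay above all brain arrays, narrowly in the case of liver 2, which also lay inside the heart range. The means were brain 9.65 ± 0.11, heart 9.68 ± 0.15 and liver 9.98 ± 0.15 (SD, n = 5 each), and the differences -0.33 (SE 0.093, adjusted p = 0.0117) for brain minus liver and -0.30 (SE 0.093, adjusted p = 0.0217) for heart minus liver. The heart minus liver call was lost without any 1 of heart 2, heart 5, liver 1 or liver 3, with adjusted p-values of 0.0594 to 0.0636. The gene has 3 probe sets. The other two averaged 9.63 for brain, 9.66 for heart and 9.94 for liver, and 7.73 for brain, 7.76 for heart and 8.08 for liver, the same order as the kept one. Near-identical copies of this gene exist, as does its close relative Slc25a4, and how the probes split between them is uncertain. The germ-cell ADP/ATP carrier Slc25a31 was dim, with means of 3.46 for brain, 3.59 for heart and 3.60 for liver.

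The carriers of ATP-Mg against phosphate, which set the adenine nucleotide pool of the matrix, differed member by member. Slc25a23 was higher in brain than in heart by 0.52 (SE 0.076, adjusted p = 8.43e-05) and than in liver by 0.28 (SE 0.076, adjusted p = 0.0104). The brain minus liver call was lost under pan-endothelial centring, at a threshold of 0.01, and with liver 1, 3 and 4 left out together. The Slc25a23 difference in heart minus liver, -0.24 (SE 0.076, adjusted p = 0.0276), was lost without any 1 of heart 1, heart 4, liver 1 or liver 5 (adjusted p up to 0.0762). Slc25a25 was highest in heart, at 6.72, 6.21, 6.27, 6.48 and 6.23 on the brain arrays, 7.44, 6.81, 6.48, 6.94 and 6.66 on the heart arrays and 5.93, 5.84, 6.05, 6.03 and 5.89 on the liver arrays. Brain and heart overlapped, since brain 1 lay above heart 3 and heart 5 and brain 4 tied with heart 3, and all liver arrays lay below both groups. Heart minus liver was 0.92 (SE 0.14, adjusted p = 9.44e-05), 1.89-fold higher in heart. The Slc25a25 difference in brain minus heart, -0.48 (SE 0.14, adjusted p = 0.0299), was lost without brain 2, 3 or 5 or heart 1 or 4 (adjusted p up to 0.0731), and that in brain minus liver, 0.43 (SE 0.14, adjusted p = 0.0341), without brain 1 or 4 or liver 1, 2 or 5 (adjusted p up to 0.0979). No contrast called Slc25a24, with means of 6.88 for brain, 6.82 for heart and 6.72 for liver, or the dim Slc25a41.

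The carriers of the malate-aspartate shuttle, which moves the reducing power of cytosolic NADH inward, were higher in liver for Slc25a11 and Slc25a12. Slc25a12 (aralar), an aspartate-glutamate carrier, stood at 7.91, 7.46, 7.72, 7.57 and 7.76 on the brain arrays, 7.64, 7.20, 7.66, 7.64 and 7.27 on the heart arrays and 8.33, 8.04, 8.28, 8.21 and 8.18 on the liver arrays. All liver arrays lay above all others, and brain and heart overlapped. Mean levels were brain 7.68 ± 0.17, heart 7.48 ± 0.23 and liver 8.21 ± 0.11 (SD, n = 5 each). Brain minus liver was -0.52 (SE 0.11, adjusted p = 0.00132), 1.44-fold lower in brain, and heart minus liver -0.73 (SE 0.11, adjusted p = 5.7e-05), 1.65-fold lower in heart. Brain minus heart, at 0.20 (95% interval -0.028 to 0.43, adjusted p = 0.256), did not pass the threshold.

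Slc25a11, the oxoglutarate-malate carrier of the same shuttle, was the more variable, at 8.15, 7.43, 6.97, 7.09 and 7.67 on the brain arrays, 7.27, 7.51, 6.95, 6.70 and 6.80 on the heart arrays and 8.60, 8.09, 8.28, 7.86 and 7.96 on the liver arrays. Brain 1 reached into the liver range, and no heart array did. The means were brain 7.46 ± 0.47, heart 7.05 ± 0.34 and liver 8.16 ± 0.29 (SD, n = 5 each). Heart minus liver was -1.11 (SE 0.21, adjusted p = 0.000541), 2.16-fold lower in heart. Brain minus liver, -0.69 (SE 0.21, adjusted p = 0.0196), was lost without brain 3, brain 4 or liver 1 (adjusted p of 0.0575 to 0.0617), and brain minus heart, 0.42 (95% interval -0.024 to 0.86, adjusted p = 0.218), was not called. Slc25a13 (citrin), the aspartate-glutamate carrier best known from hepatocytes, went the other way, at 4.99, 5.24, 5.16, 5.09 and 5.20 on the brain arrays, 5.48, 6.12, 5.49, 5.67 and 5.34 on the heart arrays and 4.92, 5.23, 5.23, 5.00 and 5.14 on the liver arrays. All heart arrays lay above the brain and liver arrays, but the gene is dim, with every mean under the olfactory receptor level of 5.71: brain 5.14 ± 0.10, heart 5.62 ± 0.30 and liver 5.10 ± 0.14 (SD, n = 5 each). The differences were -0.48 (SE 0.12, adjusted p = 0.00921) for brain minus heart and 0.52 (SE 0.12, adjusted p = 0.00332) for heart minus liver.

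The glutamate carriers of this role group, Slc25a18 and the dim Slc25a22, had no call in any contrast. Of the 4 enzymes of the shuttle, 0 were higher and 1 lower in brain minus heart, 1 each way in brain minus liver, and 0 higher and 2 lower in heart minus liver (median -0.182). Got1, the cytosolic aspartate aminotransferase, averaged 6.28 for brain, 7.03 for heart and 8.43 for liver, with a difference of -2.15 (adjusted p = 1.1e-07) in brain minus liver and -1.40 (adjusted p = 2.61e-05) in heart minus liver. Hepatocyte markers ran beside these liver differences, at 7.09 to 7.84 on the liver arrays, and their part in them was not tested.

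The iron carriers included the largest difference of the family in size. Slc25a37 (mitoferrin-1), which carries iron into mitochondria and is best known from red cell precursors, stood at 7.09, 7.05, 7.06, 7.13 and 7.08 on the brain arrays, 6.96, 6.91, 7.26, 7.38 and 7.39 on the heart arrays and 9.15, 8.98, 9.00, 9.06 and 9.07 on the liver arrays. Liver arrays lay far above all others, and brain and heart overlapped. This gave means of brain 7.08 ± 0.031, heart 7.18 ± 0.23 and liver 9.05 ± 0.068 (SD, n = 5 each). Brain minus liver was -1.97 (SE 0.092, adjusted p = 1.29e-11), 3.91-fold lower in brain, and heart minus liver -1.87 (SE 0.092, adjusted p = 4.2e-11), 3.66-fold lower in heart. Slc25a28 (mitoferrin-2), the relative used in other cell types, read 8.13, 7.72, 7.61, 8.01 and 8.05 on the brain arrays, 7.82, 7.68, 7.87, 7.83 and 7.63 on the heart arrays and 8.49, 8.41, 8.58, 8.35 and 8.45 on the liver arrays. Again each liver array exceeded each brain and heart array, the means being brain 7.90 ± 0.23, heart 7.77 ± 0.11 and liver 8.46 ± 0.087 (SD, n = 5 each). Brain minus liver was -0.55 (SE 0.10, adjusted p = 0.000299) and heart minus liver -0.69 (SE 0.10, adjusted p = 3.21e-05), or 1.47-fold lower in brain and 1.61-fold lower in heart, while brain minus heart, 0.14 (95% interval -0.071 to 0.34, adjusted p = 0.417), was not called.

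Markers of other cells were read beside the mitoferrins. On liver arrays 1 to 5 the mean of the 10 macrophage and Kupffer cell genes was 8.10, 6.05, 8.68, 8.34 and 5.64, a wide range, and Slc25a37 on the same arrays was between 8.98 and 9.15. Without liver 1, 3 and 4, left out after seeing these markers, Slc25a37 differed by -1.94 (adjusted p = 6.13e-08) in brain minus liver and -1.84 (adjusted p = 1.52e-07) in heart minus liver, and Slc25a28 by -0.53 (adjusted p = 0.0139) and -0.67 (adjusted p = 0.00332). Red cell genes were not high in liver, where the mean of 5 genes was 5.04 to 5.42, against 5.16 to 5.39 in brain and 5.26 to 5.35 in heart, 3 of the 5 were dim and 0 were called in any contrast. Hepatocyte markers were high on all liver arrays. The part of macrophages, red cells and hepatocytes in the mitoferrin levels was not tested.

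**Figure D3:**
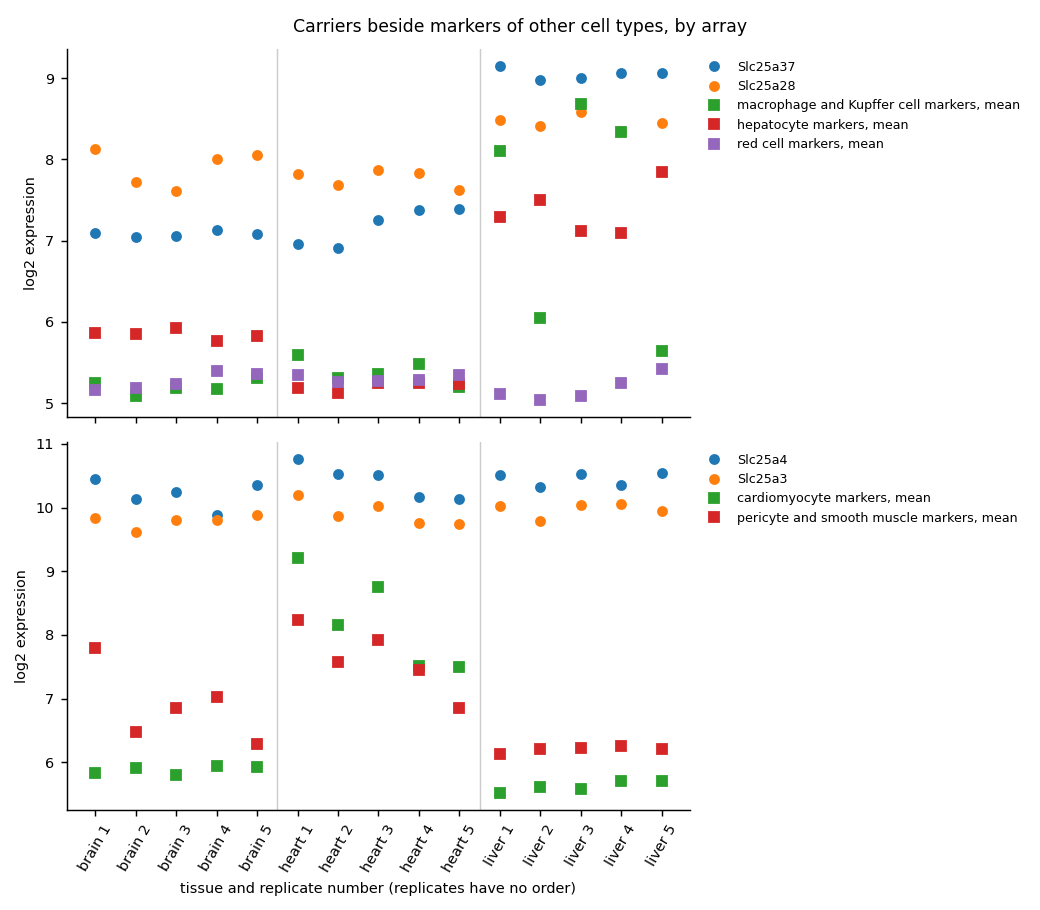
Log2 expression of Slc25a37 and Slc25a28 beside the mean of macrophage, hepatocyte and red cell markers (upper panel), and of Slc25a4 and Slc25a3 beside cardiomyocyte and mural markers (lower panel), on each array. Slc25a37 stays at 8.98 to 9.15 on liver arrays whose macrophage markers span 5.64 to 8.68.

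The glutathione carriers, also known for their link to haem and iron-sulphur synthesis, differed less than the mitoferrins. Slc25a40 was higher in brain than in heart by 0.40 (SE 0.11, adjusted p = 0.0203), a call lost without brain 3, brain 5 or heart 1 (adjusted p up to 0.0602), and its second probe set, with means of 6.64 for brain, 6.18 for heart and 6.42 for liver, had the same order. Slc25a39 was not called, at -0.25 (95% interval -0.44 to -0.059, adjusted p = 0.053) in brain minus liver. Of 10 genes of haem and iron-sulphur synthesis, 2 were higher and 0 lower in brain minus heart, 1 higher and 3 lower in brain minus liver, and 0 higher and 5 lower in heart minus liver. The list's median in heart minus liver was -0.425, where all genes had 0.032. Fech, which inserts iron into haem, was lower outside liver too, at -0.45 (adjusted p = 0.0102) in brain minus liver and -0.73 (adjusted p = 0.00016) in heart minus liver. Alas1, the first enzyme of haem synthesis, was highest in brain instead and averaged 9.18 for brain, 6.91 for heart and 7.10 for liver, a difference of 2.27 (adjusted p = 5.72e-09) for brain minus heart and 2.08 (adjusted p = 8.06e-09) for brain minus liver. Of 6 genes of glutathione synthesis and use, 0 were higher and 6 lower in heart minus liver (median -0.451), and 1 was higher and 3 lower in brain minus liver.

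The 3 relatives of the uncoupling proteins were each called at least once, where 37.8% of all genes were. Slc25a30 was lowest in brain, at 7.51, 6.79, 7.29, 7.24 and 7.21 on the brain arrays, 8.24, 8.02, 7.96, 7.98 and 7.99 on the heart arrays and 8.07, 7.63, 7.85, 7.64 and 7.60 on the liver arrays. All heart and liver arrays lay above the brain arrays. The difference was -0.83 (SE 0.12, adjusted p = 6.82e-05) in brain minus heart and -0.55 (SE 0.12, adjusted p = 0.002) in brain minus liver, or 1.78-fold and 1.46-fold lower in brain. Slc25a27 (Ucp4) differed by 0.55 (SE 0.16, adjusted p = 0.0183) in heart minus liver, lost without heart 3, heart 4 or liver 1 (adjusted p up to 0.0562). Slc25a14 (Ucp5) differed by -0.49 (SE 0.17, adjusted p = 0.0414) there, lost without brain 3, heart 1, 2 or 3, or liver 1, 4 or 5 (adjusted p up to 0.119).

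Among the remaining amino acid carriers, only Slc25a38, the glycine carrier of haem synthesis, was called, at 0.23 (SE 0.078, adjusted p = 0.0389) in brain minus liver, and the call was lost without brain 2, 3 or 4 or without any 1 of the 5 liver arrays (adjusted p up to 0.10). The ornithine carrier Slc25a15, the basic amino acid carrier Slc25a29, the branched-chain amino acid carrier Slc25a44 and the dim Slc25a2 had no call. Slc25a29 had means of 6.27 for brain, 6.44 for heart and 6.41 for liver. Of 7 genes of the urea cycle and ornithine metabolism, 0 were higher and 2 lower in brain minus heart (median -0.08), 0 higher and 3 lower in brain minus liver (median -0.45), and 1 higher and 2 lower in heart minus liver (median -0.17). Odc1, the first enzyme of polyamine synthesis, differed by -1.18 (adjusted p = 1.38e-06) in brain minus heart.

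Of 9 members in the outer membrane or without a settled substrate, 8 had no call, and 4 of the 9 were dim. Among all genes, 37.8% were called in at least 1 contrast. The exception was Slc25a35, at 6.53, 6.58, 6.58, 6.37 and 6.92 on the brain arrays, 6.22, 5.83, 5.80, 5.92 and 5.79 on the heart arrays and 7.21, 6.73, 7.20, 7.04 and 7.68 on the liver arrays. Heart arrays were below all others, and liver 2 lay under brain 5. The means were brain 6.60 ± 0.20, heart 5.91 ± 0.18 and liver 7.17 ± 0.34 (SD, n = 5 each). Heart minus liver was -1.25 (SE 0.14, adjusted p = 3.05e-06), 2.39-fold lower in heart, brain minus heart 0.68 (SE 0.14, adjusted p = 0.00276), 1.61-fold higher in brain, and brain minus liver -0.57 (SE 0.14, adjusted p = 0.00642), 1.49-fold lower in brain. Slc25a46, the outer membrane member, had means of 7.58 for brain, 7.76 for heart and 7.91 for liver and was not called, at -0.33 (95% interval -0.60 to -0.063, adjusted p = 0.0685) in brain minus liver. No contrast called Slc25a43, Slc25a45 or Slc25a47, nor the dim Slc25a34, Slc25a48, Slc25a53 and Slc25a54.

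By tissue, 4 carriers (8.7%) were higher in brain than in both others, where 4.7% of all genes were, namely Slc25a1, Slc25a20, Slc25a23 and Slc25a32. Slc25a30 was lower in brain than in both (2.17%, against 2.82% of all genes). Heart had 2 higher, Slc25a13 and Slc25a25 (4.35% against 3.73%), and 3 lower, Slc25a23, Slc25a33 and Slc25a35 (6.52% against 3.27%). Cardiomyocyte markers were high on all heart arrays, at 7.49 to 9.21, and their part in the heart levels was not tested. The 2 higher in heart became 1 without brain 3, brain 5, heart 1 or heart 4. Liver had 7 higher, Slc25a5, Slc25a11, Slc25a12, Slc25a28, Slc25a35, Slc25a37 and Slc25a51 (15.2% against 10.4%). The 2 lower in liver, Slc25a25 and Slc25a32 (4.35% against 5.64%), became 1 without brain 4 or without liver 1, 2 or 5.

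The liver count fell when the liver arrays rich in macrophage markers were left out. Without liver 1, 3 and 4, which leaves 2 liver samples, only Slc25a28 and Slc25a37 of those 7 stayed higher in liver than in both others, and brain minus liver called 5 carriers in all, or 10.9%, where 17.6% of all genes were called. Heart minus liver then called 9, or 19.6%, where 16.5% of all genes were. With all arrays these 2 contrasts called 25.1% and 27.8% of all genes, so calls fell over all genes too. The share of all genes higher in liver than in both others is not given here for this setting. Slc25a11 then differed by -0.98 (adjusted p = 0.0254) in heart minus liver, Slc25a12 by -0.63 (adjusted p = 0.0098) and Slc25a35 by -1.29 (adjusted p = 0.000536), with brain minus liver differences of -0.56, -0.43 and -0.61 no longer called. Slc25a5 fell short in both, at -0.23 (adjusted p = 0.241) in brain minus liver and -0.20 (adjusted p = 0.337) in heart minus liver. Slc25a13 in heart minus liver (0.44, adjusted p = 0.0944) and Slc25a30 in brain minus liver (-0.41, adjusted p = 0.0845) also missed the threshold. The part that those cells and the smaller number of samples had in these losses was not tested. Without heart 1 and 3, the arrays with the highest cardiomyocyte markers, Slc25a17 (adjusted p = 0.164), Slc25a32 (adjusted p = 0.0987) and Slc25a40 (adjusted p = 0.13) were no longer called higher in brain than in heart, leaving 5. In either direction that contrast then called 17.4% of the carriers, against 13.2% of all genes.

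Of the 46 members, 22 were called in at least 1 contrast, or 47.8%, against 37.8% of all genes. The other 24 had no call, 7 had a call in 1 contrast, 11 in 2 and 4 in all 3. The spread within tissues was like that of other genes, with a median pooled SD of 0.188 for the carriers and 0.169 for all genes, and ranged from 0.071 to 0.476 among the carriers. In the genome the members lie on 19 chromosomes, and 4 pairs sit next to each other with no other protein-coding gene between. The X-linked pair holds Slc25a5, called in 2 contrasts, and Slc25a43, called in none, and the pair on chromosome 17 holds Slc25a23, called in all 3, and Slc25a41, called in none. The pair Slc25a29 and Slc25a47 on chromosome 12 and the pair Slc25a54 and Slc25a24 on chromosome 3 had no call.

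Genes of carrier import and of the outer membrane channels were lower in heart than in liver where they were called, and 16.3% of all genes were called lower there, with 14% lower in brain minus liver. Of 11 genes of the machinery that imports carriers into the inner membrane, 0 were called in brain minus heart, 0 higher and 3 lower in brain minus liver, and 0 higher and 5 lower in heart minus liver, with a median of -0.347 in heart minus liver. Timm10, a chaperone of the intermembrane space, stood at -0.56 (adjusted p = 0.00443) in heart minus liver. Of 8 outer membrane channel and calcium uniporter genes, 0 were higher and 5 lower in heart minus liver (median -0.457), and 1 higher and 5 lower in brain minus liver (median -0.295), where Mcu, the pore of the uniporter, differed by -0.91 (adjusted p = 5.98e-05). Hepatocyte and macrophage markers moved the same way in heart minus liver, with 11 of 12 and 9 of 10 genes lower. The import list averaged 7.69, 7.34, 7.68, 7.46 and 7.58 on liver arrays 1 to 5. The macrophage mean on the same arrays was 8.10, 6.05, 8.68, 8.34 and 5.64. The part of these cells in the list counts was not tested. Pyruvate entry, with 9 genes, had 2 higher and 0 lower in brain minus heart and 0 higher and 2 lower in heart minus liver. Glutamate and proline metabolism, with 5 genes, had 2 higher and 0 lower in brain minus heart and 1 higher and 2 lower in heart minus liver. Of 14 regulators of mitochondrial biogenesis, 3 were higher and 4 lower in brain minus liver and 1 higher and 3 lower in heart minus liver. Of 4 carrier relatives under other symbols, 2 were dim, Ucp1 and Ucp3, and had no call. The others, Mtch1 and Mtch2 of the outer membrane, averaged 9.21 and 8.90 for brain, 9.26 and 9.07 for heart and 9.98 and 9.53 for liver. Both were called lower in brain than in liver and in heart than in liver.

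**Figure D4:**
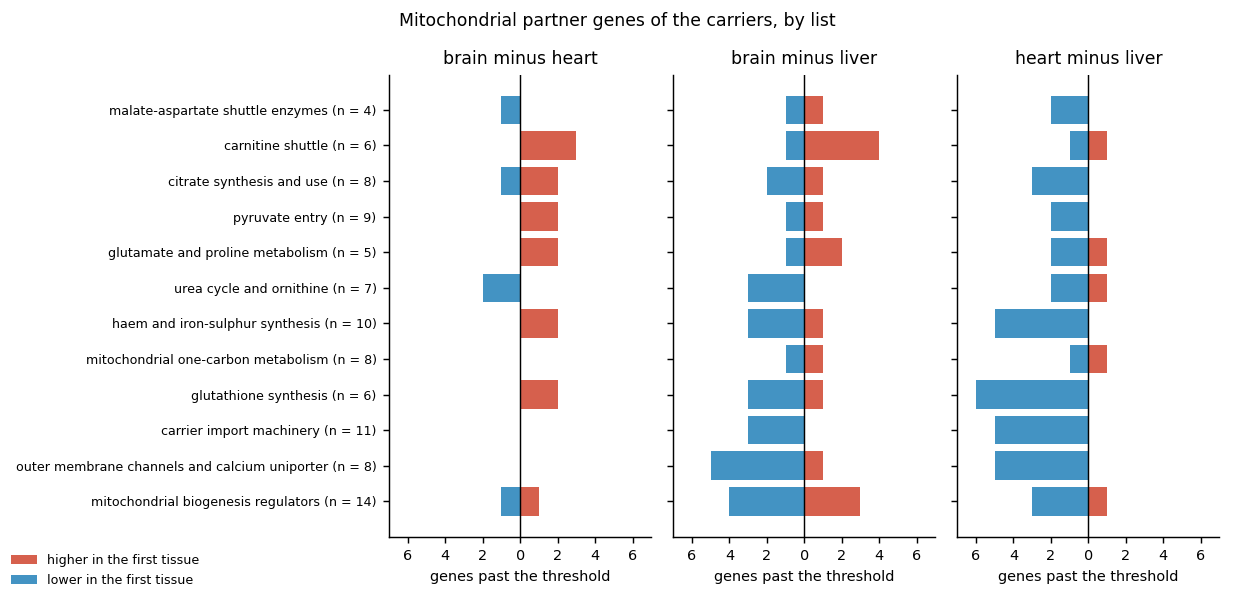
Number of genes in each mitochondrial list that passed the threshold, higher (right) or lower (left) in the first tissue, for the 3 contrasts. The glutathione synthesis list, which also holds genes of glutathione use, has 6 of 6 genes lower in heart than in liver. The carnitine shuttle list, which includes Acadvl of fatty acid oxidation, has 4 of 6 higher in brain than in liver.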

How the data were processed

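Endothelial RNA from 5 brain, 5 heart and 5 liver pools was measured on 15 single-colour arrays. The 35556 probe sets have log2 values, deposited by the authors and made by RMA in Affymetrix Power Tools, per the submitters' processing notes. Such values are already background-corrected and normalized between arrays, which can shrink global shifts. Groups came from the sample titles. Of the probe sets, 21789 carried 1 gene symbol in the platform annotation, 1621 several and 12146 none; 21698 of the symbols matched RefSeq. The highest-mean probe set stood for each of 19938 genes. R 4.3.3 with limma 3.58.1 (lmFit, eBayes) fitted 1 mean per tissue over all arrays, and p-values were adjusted by Benjamini-Hochberg over all genes of a contrast (threshold 0.05). Intervals are 95%. The fit was tested on simulated data. The number of arrays limits the precision. No 2 arrays were identical. Genes under 5.71 in every tissue are called dim. Values on every array were given for 12 members by rule, namely those called with a difference of at least 1 and 10 chosen by role, and for Slc25a25 and Slc25a30, added after their values were seen; others appear by role and counts, and of each pathway list the genes named come from the 3 with the largest called differences. The members and lists were chosen with earlier results of these data known. Alternatives covered a replicate block, only 2 tissues, trend and robust variance, array weights, mean probe sets, dim genes left out, 2 centrings, a threshold of 0.01 and left-out arrays. Neuron, astrocyte, oligodendrocyte, fibroblast and adipocyte markers were also read. Neuron, astrocyte, oligodendrocyte and adipocyte genes were mostly dim (7 of 9, 5 of 8, 6 of 7 and 5 of 7), and fibroblast genes averaged 5.39 to 6.06 in brain, 6.46 to 7.80 in heart and 5.38 to 6.01 in liver.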

Additional observations from a re-analysis of the deposited data

Results flagged for a closer look

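Of 138 groups of 5 arrays, 8 had 1 array set apart from the other 4 by over 0.71 of the group's range; chance gives about 1 in 20. Slc25a16 on brain 1 was lowest at 5.58, with the others at 6.09 to 6.21. Slc25a17 on heart 1 was lowest at 6.60, with the others at 7.07 to 7.14, and Slc25a30 on the same array was highest at 8.24, with the others at 7.96 to 8.02. Heart 1 also had the highest cardiomyocyte marker mean, 9.21. Heart 3, with a mean of 8.76, had 7.07 for Slc25a17 and 7.96 for Slc25a30. On liver 3, Slc25a46 was highest at 8.24, against 7.77 to 7.91, and the dim Slc25a31 was highest at 4.12, against 3.39 to 3.50. Liver 3 had the highest macrophage marker mean, 8.68. Liver 1 and 4, with means of 8.10 and 8.34, had 7.82 and 7.91 for Slc25a46. The part of other cells in these flags was not tested. Other dim members were Slc25a21 on heart 5, lowest at 3.55 against 3.61 to 3.62, Slc25a48 on brain 5, highest at 4.85 against 4.62 to 4.66, and Slc25a54 on heart 2, lowest at 3.07 against 3.23 to 3.28.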

How the results depend on the processing

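The 41 called differences were recomputed under 26 alternatives each (fewer for dim members), 1062 values in all. The direction was kept in all of them, the call in 929, and 133 fell short of the threshold; 20 differences kept their call throughout. Leaving out single arrays gave 5 to 9 carriers higher and 2 to 4 lower in brain minus heart, 5 to 7 and 7 to 10 in brain minus liver, and 3 to 5 and 7 to 11 in heart minus liver. Against both other tissues it gave 3 to 5 higher and 1 lower in brain, 1 to 3 higher and 2 to 4 lower in heart, and 5 to 8 higher and 1 to 2 lower in liver. Centring on pan-endothelial genes gave 5 higher and 15 lower in brain minus heart, 3 higher and 20 lower in brain minus liver, and 6 lower in heart minus liver; 2 were higher and 9 lower in brain than in both, and 1 lower in liver. That centring called 37.1% of all genes in brain minus heart and 38.3% in brain minus liver, with medians of -0.252 and -0.226, against 43.5% and 50% of the carriers. For this and the other alternatives, the shares of all genes by direction or against both other tissues are not given here. The counts of that kind are therefore not read as particular to the carriers. Median centring left 1 lower in liver. Only the 2 tissues of a contrast, or no dim genes, left 1 higher in heart. At an adjusted p under 0.01, brain minus heart had 5 higher, brain minus liver 4 higher and 5 lower, heart minus liver 6 lower; brain had 2 higher, heart 1 higher, and liver 4 higher and 1 lower than both. The share of all genes at that threshold is not given here. Without heart 1 and 3, brain minus heart had 5 higher. In either direction it then called 17.4% of the carriers, against 13.2% of all genes. Without liver 1, 3 and 4 (chosen after seeing the data), brain minus liver had 3 higher and 2 lower, heart minus liver 2 higher; 0 were lower in brain, 0 higher in heart, and 2 higher and 1 lower in liver; the cause was not tested. With the replicate block, brain minus heart had 7 higher and 3 lower, brain minus liver 6 and 11, heart minus liver 6 and 12. In that order the block called 21.7%, 37% and 39.1% of the carriers, against 16.9%, 26.5% and 29.8% of all genes. Slc25a17 in brain minus heart (adjusted p = 0.0506) and Slc25a38 in brain minus liver (adjusted p = 0.0589) lost their calls there. Deviations of same-numbered arrays of different tissues correlated at -0.00053 to 0.204, those of other numbers at -0.167 to 0.126. For 8 of 15 arrays, the best correlation was with the array of their own number in both other tissues. This is a hint of pairing from the data and not from the design, and not every pair passed 0.1. Signal near background limits the 11 dim members.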
